A study of Mus musculus with 44 samples.

Results

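The arrays described here are the 8 that hold TCDD-treated cells at 12 and 24 h, out of 44 arrays in the series. They were chosen by treatment and harvest time as the sample labels give them, 4 arrays for each time, and matched by replicate number. All 44 arrays come from 1 line, CH12.LX, grown out of a mouse B cell lymphoma and able to secrete antibody once activated. The cells were plated at 100000 cells per ml. The 4 arrays at 0 h hold untreated cells, and they entered only the normalization, the filter and the fit. All other cells were activated with lipopolysaccharide (LPS) of Salmonella typhosa, from the outer membrane of that bacterium, which B cells sense through a Toll-like receptor. The activated cells also received either the chlorinated dioxin TCDD at 10 nM or its solvent, dimethyl sulfoxide (DMSO) at 0.01%. Both times compared therefore share the line, the LPS and the TCDD, and differ in hours of exposure. The 4 DMSO arrays at 12 h and the 4 at 24 h, which share the LPS but not the TCDD, were read as controls for the interval. Each replicate number stands for a separate day of treatment and harvest, and the fit takes out level differences between days. The p-values therefore reflect only the spread that remains among cultures of this line, pooled over all groups.

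TCDD binds the aryl hydrocarbon receptor (AhR) and is degraded slowly. AhR is a cytoplasmic factor that moves to the nucleus on ligand binding, pairs with Arnt and switches on genes of foreign-compound metabolism, among them its own repressor. In B cells activated with LPS, a programme towards antibody secretion unfolds in parallel: the factors Blimp-1 (encoded by Prdm1) and Xbp1 rise, the endoplasmic reticulum (ER) enlarges, and the B cell factors Pax5 and Bach2 give way. LPS also drives NF-kB and interferon-dependent genes. TCDD is known to lower antibody secretion in LPS-activated B cells. Expression was read on Affymetrix arrays of the mouse genome, and levels and differences below are on the scale log2(signal + 16), on which a difference of 1 is a doubling for a bright gene and an understated one for a dim gene.

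The 8 TCDD arrays gave no array that stood apart. Their 12 h arrays had median signals of 45.2 to 71.6 before normalization, the 24 h arrays 48.4 to 67.5, and the lowest correlation of any array with another of its group was 0.965 at 12 h and 0.973 at 24 h. The 3' to 5' log2 ratio of the transferrin receptor controls, a sign of RNA length, was 1.07 to 1.54 at 12 h and 0.99 to 1.29 at 24 h, and its part in the results was not tested. Among the controls, DMSO 12 h replicate 4 had the highest median signal of these 16 arrays, 87.9. Markers of the labelled cell type were present. All 7 B cell markers measured had an array above the median of all values (6.21), and 3 were called higher at 24 h and 1 lower. Of the other marker lists, 1 of 5 natural killer markers and 0 of 3 erythroid markers reached that level, as did 4 of 7 T cell, 6 of 7 myeloid, 4 of 6 fibroblast and 3 of 5 epithelial markers. Cd3d, Cd4, Itgam, Ncr1, Gzmb, Hba-a1, Col3a1 and Cdh1 stayed below it on all 8 arrays. Others of the same lists were bright: at 12 h the T cell markers Cd8b1 and Cd8a read 9.99 to 10.29 and 9.12 to 9.20, and the myeloid markers Csf1r and Adgre1 10.48 to 10.78 and 8.98 to 9.27. Cd8a (-0.43) and Adgre1 (-0.83) were called lower at 24 h, and the natural killer marker Prf1 (0.42) higher. Summed signal of the B cell list was 10730 to 12860 at 12 h and 14600 to 17660 at 24 h. That of the T cell list was 1756 to 2053 and 1419 to 1805, and that of the myeloid list 2133 to 2489 and 1840 to 2093. Whether these shifts bear on the results was not tested. On bulk arrays, a change in RNA per cell and a change in the share of cells making it cannot be told apart.

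Between 12 and 24 h of TCDD, 21 of 34 interferon response genes, 20 of 27 genes of the integrated stress response and 15 of 24 ER chaperone genes rose. The receptor gene Ahr fell, as did 6 of 7 AhR targets, 11 of 38 ribosome biogenesis genes and 12 of 31 proteasome genes. Of 11969 genes tested, 2223 were called, which is 18.6% of those tested (limma, adjusted p at most 0.05). Of these, 1079 were higher at 24 h (9.01%) and 1144 were lower (9.56%). The median change over all genes tested was -0.023, and 3604 genes had an unadjusted p below 0.05. Among the called genes 139 rose by at least 1 and 50 fell by at least 1. All 4 arrays of 24 h lay above all 4 of 12 h for 925 genes (7.73%) and below them for 993 (8.3%).

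Much of this also took place without TCDD. Over the same interval in DMSO cells, 2074 genes were called (17.3%), 1153 of them higher (9.63%) and 921 lower (7.69%). The calls shared by both intervals were 550 higher genes, 51.0% of those higher with TCDD and 47.7% of those higher with DMSO, and 447 lower genes, 39.1% and 48.5%. Changes in the 2 treatments correlated across genes with r = 0.48. These intervals share no array but share the 4 days. The difference between the intervals, fitted as an interaction, was called for 270 genes (2.26%), 150 of them more positive with TCDD (1.25%) and 120 more negative (1%). Of the 270 genes, 71 rose with TCDD alone called, 51 fell with DMSO alone called, 48 rose with DMSO alone called and 41 fell with TCDD alone called. For another 30 genes both intervals were called in opposite directions. They include Usp18, Ifng, Tlr7, Spib and Ms4a1, which rose with TCDD and fell with DMSO, and St8sia4, Mgat4a and Hmgcs1, which did the reverse. Tlr7, Mgat4a, Hmgcs1, Spib and Ms4a1 were picked from these 30 after their values were seen. Map7d2 and Il3 were among the largest positive interactions. Map7d2, a dim gene, rose by 0.96 with TCDD and fell by 1.17 with DMSO (interaction 2.13, adjusted p = 0.00714). Il3 rose by 1.10 with TCDD and changed by -0.73 with DMSO, not called (interaction 1.83, adjusted p = 0.0219).

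**Figure D1:**
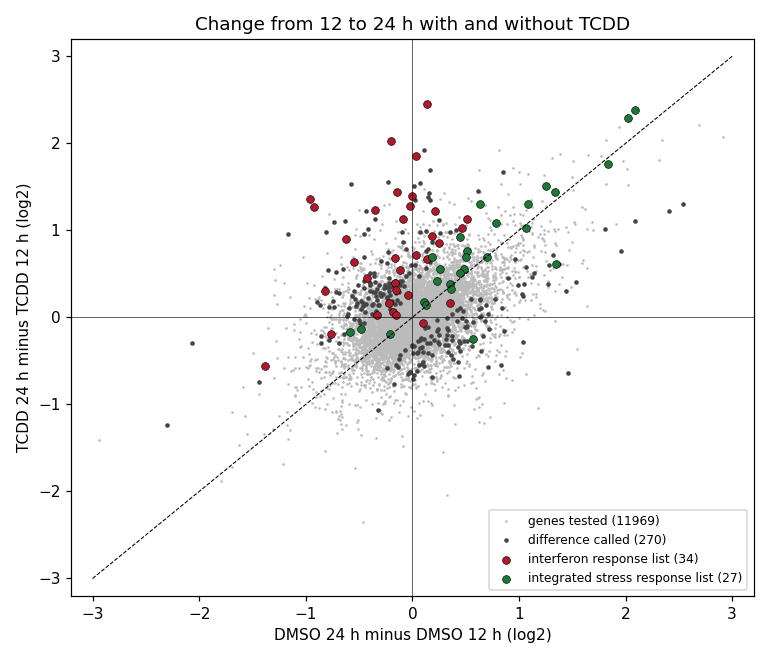
Change from 12 to 24 h in DMSO cells (horizontal, log2) and TCDD cells (vertical, log2) for 11969 genes, 1 point per gene, with the dashed line marking equal change. Dark points are the 270 genes whose changes differed, red points the 34 tested interferon response genes and green points the 27 of the integrated stress response; the red points lie mostly above the line and the green points along it.

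The counts depend on the day being part of the fit. Without it, 1176 genes were called with TCDD, 1194 with DMSO and 70 for the difference. Leaving out a day lowered the TCDD count to 1444 (day 1) and 1278 (day 2), the DMSO count to 1366 and 1367, and the count of differences to 87, 39, 144 and 128 for days 1 to 4. That last count was also moved by single arrays: it was 178 without TCDD 12 h replicate 2, 175 without TCDD 12 h replicate 4, 172 without TCDD 24 h replicate 2, 173 without DMSO 24 h replicate 1 and 168 without DMSO 24 h replicate 2. It was 594 when 4 arrays with technical values apart from the rest, of which DMSO 12 h replicate 4 is the only one compared here, were left out.

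Most targets of AhR fell from their 12 h level, and Cyp1a1, Ahrr and Tiparp stayed above all DMSO arrays at 24 h. Of 7 tested, 0 were called higher and 6 lower (Cyp1a1, Cyp2s1, Ahrr, Nqo1, Tiparp and Lpxn), with a median change of -0.49 against -0.023 for all genes. Per day that median was -0.48, -0.56, -0.43 and -0.60. In DMSO cells 2 of the 7 fell and the median was -0.32. Of all genes tested, 9.56% fell with TCDD and 7.69% with DMSO. Cyp1a1, the classical target and an enzyme that oxidises polycyclic compounds, measured 13.33, 13.35, 13.32 and 13.38 at 12 h on days 1 to 4 and 12.17, 12.13, 11.98 and 12.18 at 24 h. The groups did not overlap, and the fall of 1.23 (SE 0.20, n = 4 pairs, limma adjusted p = 2.36e-05) was seen on each day. The DMSO arrays read 7.93, 8.19, 8.56 and 8.94 at 12 h and 5.67, 6.20, 6.25 and 6.31 at 24 h, all below the TCDD arrays of both times. Cyp1a1 fell by 2.30 with DMSO, more than with TCDD (interaction 1.07, limma adjusted p = 0.0307). That difference was no longer called whichever single day was left out.

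Cyp2s1, another cytochrome P450 of the AhR battery, had the largest fall among called genes that fell on all 4 days. Symbols of clones and predicted genes were left aside in that ranking. It went from 7.26, 8.20, 8.10 and 8.30 to 5.31, 5.05, 6.01 and 6.09, a fall of 2.35 (SE 0.39, adjusted p = 5.14e-05). Its 24 h arrays overlapped the DMSO arrays of that time, which ran from 4.79 to 5.74. The other Cyp1 gene of the list, Cyp1b1, was not called, with 8.24, 8.28, 7.89 and 8.04 at 12 h and 8.14, 8.02, 8.01 and 7.70 at 24 h (change -0.15, SE 0.29, adjusted p = 0.793). Ahrr, which encodes the repressor that competes with AhR for Arnt, fell by 0.88 (SE 0.17, adjusted p = 0.000404), from 8.89, 8.94, 8.74 and 9.11 to 8.09, 8.12, 8.11 and 7.83. Tiparp, an ADP-ribosyltransferase that also restrains AhR, read 13.06, 13.17, 12.91 and 13.15 and then 12.80, 12.75, 12.59 and 12.56, a fall of 0.40 (adjusted p = 0.00653, and 0.0525 without day 2). Nqo1, a quinone reductase under AhR and NRF2, fell by 0.49 (adjusted p = 0.00928, and 0.235 without the day in the fit). With DMSO, Ahrr fell by 0.67 (adjusted p = 0.00615). Cyp2s1, Tiparp and Nqo1 changed by -0.46, -0.28 and -0.32 there and were not called. The difference between the intervals was not called for Cyp2s1 (-1.89, adjusted p = 0.0661), Ahrr (-0.21, 0.765), Tiparp (-0.12, 0.785) or Nqo1 (-0.17, 0.751).

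Ahr transcripts fell in both treatments. With TCDD they measured 10.77, 10.67, 10.83 and 11.19 at 12 h and 10.11, 9.70, 9.51 and 9.79 at 24 h, a fall of 1.09 (SE 0.13, adjusted p = 3.36e-07), with no overlap. In DMSO cells they went from 11.40, 11.28, 11.48 and 11.92 to 9.99, 9.58, 9.88 and 9.87, a fall of 1.69. The TCDD arrays lay below all DMSO arrays at 12 h and overlapped them at 24 h, and the difference between the intervals missed the threshold (interaction 0.60, adjusted p = 0.0930). Of 9 receptor partners and cofactors tested, Ncoa2 rose (0.50, adjusted p = 9.51e-05, and 0.0564 without the day), Ncoa3 and Ahr fell and 6 were not called. The shares over all genes were 9.01% higher and 9.56% lower with TCDD. Ncoa3, a coactivator, had -0.44 (adjusted p = 0.00446), but a second probe set gave 0.37 (adjusted p = 0.137). The motif of AhR and Arnt (TNGCGTG, either strand) occurs within 250 bases before the start in 1 of the 7 targets, Ahrr, and in 7.8% of all genes tested that have a promoter in the table used.

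**Figure D2:**
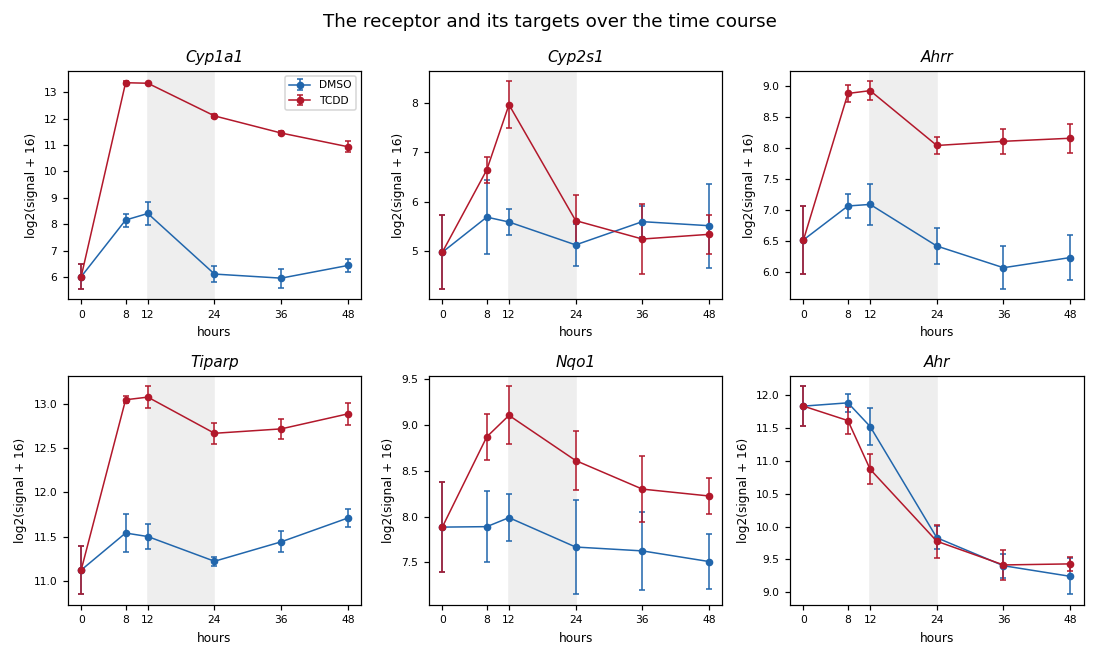
Mean log2(signal + 16) with SD over 4 arrays for Ahr and 5 of its targets from 0 to 48 h, TCDD in red and DMSO in blue, both starting from the same untreated cells. In the shaded interval from 12 to 24 h all 6 fall with TCDD, and Cyp2s1 alone reaches the DMSO range at 24 h among the 5 targets.

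Many interferon-induced genes rose with TCDD, and few with DMSO. Of 34 tested, 21 were called higher with TCDD and 0 lower, with a median change of 0.70, against 2 higher and 4 lower and a median of -0.15 with DMSO. The background over all genes is 9.01% higher and 9.56% lower with TCDD, and 9.63% higher and 7.69% lower with DMSO. On days 1 to 4 the TCDD median was 0.75, 0.52, 0.72 and 0.83. The difference between the intervals was called for 14 of the 34, all in the same direction, where 1.25% of all genes were called that way. Those 14 were Oasl2, Rsad2, Ifit3, Ifit2, Mx1, Usp18, Oas3, Oas1a, Oas2, Gbp3, Bst2, Dhx58, Trim30a and Oasl1. Fewer were called when a day was left out: 16, 15, 16 and 14 rose with TCDD and 8, 3, 8 and 5 differed, for days 1 to 4. Without the day in the fit, 16 rose and 8 differed. Single arrays brought the 14 down to 9 at the lowest, without DMSO 24 h replicate 2. The list members Isg15 and Ifi44 were not analysed here.

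The promoters of 3 of these genes are shown because they hold the interferon-stimulated response element (ISRE), a site bound by interferon regulatory factors. Each is the 250 bases before the RefSeq start (GRCm38.p6), read 5′ to 3′ on the gene's strand, with matches in capitals, a match being GAAA, any 2 bases and GAAA, on either strand. Rsad2 is at chr12:26456453-26456702 on the minus strand, Ifit3 at chr19:34583279-34583528 on the plus strand and Oas3 at chr5:120777660-120777909 on the minus strand.
Rsad2: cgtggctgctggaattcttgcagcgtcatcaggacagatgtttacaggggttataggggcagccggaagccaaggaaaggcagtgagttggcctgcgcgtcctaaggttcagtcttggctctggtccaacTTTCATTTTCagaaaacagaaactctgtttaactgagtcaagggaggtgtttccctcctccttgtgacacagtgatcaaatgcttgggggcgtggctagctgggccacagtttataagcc
Ifit3: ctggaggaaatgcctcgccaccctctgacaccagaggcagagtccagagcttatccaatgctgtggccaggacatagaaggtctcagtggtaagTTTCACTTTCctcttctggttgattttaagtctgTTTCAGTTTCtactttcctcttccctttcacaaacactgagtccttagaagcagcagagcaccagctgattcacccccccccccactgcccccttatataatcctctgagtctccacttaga
Oas3: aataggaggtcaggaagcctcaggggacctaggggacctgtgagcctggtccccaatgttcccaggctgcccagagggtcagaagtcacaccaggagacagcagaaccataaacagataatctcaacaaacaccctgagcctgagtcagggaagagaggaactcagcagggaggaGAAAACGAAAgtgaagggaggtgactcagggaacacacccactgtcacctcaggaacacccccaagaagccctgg
The match lies 120 bases before the start in Rsad2, 122 and 156 in Ifit3 and 75 in Oas3, counted back from the start to the match's first base. Of 25 list members with a promoter in the table, 13 hold a match (52%), against 3.24% of all tested genes with a promoter. Of members with the match 8 of 13 rose with TCDD and 7 of 13 were called for the difference between the intervals, and of those without it 7 of 12 and 3 of 12. Whether these shares differ was not tested. Oasl2, Ifit2, Irf7 and Cmpk2 rose and have no such letters in the window.

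Oasl2, an antiviral member of the oligoadenylate synthetase family, had the largest rise among called genes that rose on all 4 days. It measured 8.81, 8.97, 8.81 and 8.41 at 12 h and 11.06, 11.41, 11.19 and 11.15 at 24 h, 5.48-fold higher on this scale (2.45, SE 0.31, adjusted p = 5.15e-07). DMSO arrays read 6.43, 6.95, 6.98 and 6.61 and 6.39, 6.99, 7.52 and 6.62, which overlap, so the TCDD arrays were the higher ones at 12 h already and moved further up. The interaction was 2.32 (SE 0.44, adjusted p = 0.00240, and 0.0967 without day 2). Rsad2, encoding the antiviral enzyme viperin, went from 7.90, 8.49, 7.96 and 7.71 to 10.08, 10.27, 9.97 and 9.82 with TCDD. With DMSO it read 6.61, 6.33, 6.91 and 7.68 and then 7.00, 6.25, 6.71 and 6.78. Its rise of 2.02 (SE 0.30, adjusted p = 9.33e-06) and its interaction of 2.22 (SE 0.43, adjusted p = 0.00303) were called in every alternative run. Its other probe sets rose by 1.72 and 2.00 with TCDD, and the interaction was called for the latter (2.27, adjusted p = 0.00561) and not for the former (1.42, adjusted p = 0.185).

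Usp18, the protease that removes ISG15 and damps the type I interferon receptor, moved in opposite directions. With TCDD it rose from 11.64, 11.85, 11.50 and 11.10 to 12.99, 13.08, 12.85 and 12.61 (1.36, SE 0.27, adjusted p = 0.000468). With DMSO it fell from 9.82, 9.97, 10.62 and 10.07 to 8.87, 9.26, 9.75 and 8.75 (-0.96, adjusted p = 0.0118). The 2 times did not overlap in either treatment. The interaction of 2.32 (SE 0.38, adjusted p = 0.000472) was called in every alternative run.

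Ifit3 and Ifit2, which bind and block foreign RNA, behaved alike. Ifit3 measured 8.59, 9.29, 8.53 and 8.39 and then 10.57, 11.08, 10.41 and 10.15 with TCDD, and between 6.62 to 7.19 and then 6.79 to 7.00 with DMSO. Its rise was 1.85 (SE 0.25, adjusted p = 2.17e-06) and its interaction 1.82 (adjusted p = 0.00376, and 0.0623 without day 4). Ifit2 rose by 1.44 (SE 0.21, adjusted p = 4.21e-06), with an interaction of 1.59 (adjusted p = 0.00169, 0.0534 without day 2 and 0.0584 without day 4). Oas3, which makes the messenger that activates RNase L, rose from 7.58, 8.52, 7.86 and 7.65 to 9.18, 8.99, 9.39 and 9.14 with TCDD (1.27, SE 0.34, adjusted p = 0.00801). Its rise was lost without day 1 (adjusted p = 0.0581) and without day 4 (adjusted p = 0.0837). The Oas3 interaction of 2.19 (adjusted p = 0.0110) was lost without day 1, 2 or 4, with adjusted p = 0.0984, 0.0965 and 0.0987.

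Interferon-induced genes outside the list were also among the largest rises. Ifi209, of the family of cytosolic DNA sensors, rose from 8.92, 8.97, 8.69 and 8.99 to 10.66, 10.87, 10.83 and 10.73 (1.88, adjusted p = 1.50e-07), and it rose with DMSO too (1.39, adjusted p = 1.85e-05). Ddx60, a helicase that supports RNA sensing, rose from 5.67, 5.27, 5.97 and 5.94 to 7.83, 7.54, 7.68 and 7.48 (1.92, adjusted p = 2.29e-05). Its interaction of 1.81 (adjusted p = 0.0186) was lost without day 1, 2 or 4 and without replicate 2 of TCDD 12 h, DMSO 12 h or DMSO 24 h, with adjusted p = 0.0750, 0.326, 0.0960, 0.0505, 0.0530 and 0.0558. A second Ddx60 probe set was not called, with 0.94 for TCDD (adjusted p = 0.0743) and an interaction of 1.06 (adjusted p = 0.384). Ifit1bl1, an Ifit1-like gene, rose by 1.53 (SE 0.27, adjusted p = 0.000109), with an interaction of 2.11 (adjusted p = 0.00160, and 0.0908 without day 2). H2-T24, a nonclassical class I gene, rose by 1.93 (SE 0.25, adjusted p = 9.86e-07) and by 0.82 with DMSO (adjusted p = 0.0210), and the difference was not called (1.11, adjusted p = 0.103).

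Ifng, encoding the type II interferon, was looked at after its values were seen. It measured 8.63, 8.95, 9.82 and 9.59 at 12 h and 10.07, 10.01, 10.69 and 10.14 at 24 h with TCDD, a rise of 0.98 (SE 0.20, adjusted p = 0.000681). With DMSO it fell from 7.48, 7.97, 8.81 and 8.61 to 7.38, 7.23, 7.88 and 7.14 (-0.81, adjusted p = 0.00430). At 24 h every TCDD array lay above every DMSO array. The interaction was 1.79 (SE 0.29, adjusted p = 0.000318, and 0.0613 without the day in the fit). Among list members that did not rise with TCDD, Irf1 (-0.062), Irf9 (0.027), Gbp2 (0.026) and Cxcl10 (-0.56) were not called, and Cxcl10 fell with DMSO (-1.38, adjusted p = 0.000110). Class I presentation and immunoproteasome genes, which interferons also induce, moved less: 3 of 12 rose with TCDD and 0 fell (median 0.18). With DMSO 0 were called (limma), with 3 at an unadjusted p below 0.05. Of all genes tested, 9.01% rose with TCDD. Psmb9, an immunoproteasome subunit, rose by 0.28 (SE 0.065, adjusted p = 0.00191, and 0.0805 with the 8 arrays fitted alone).

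**Figure D3:**
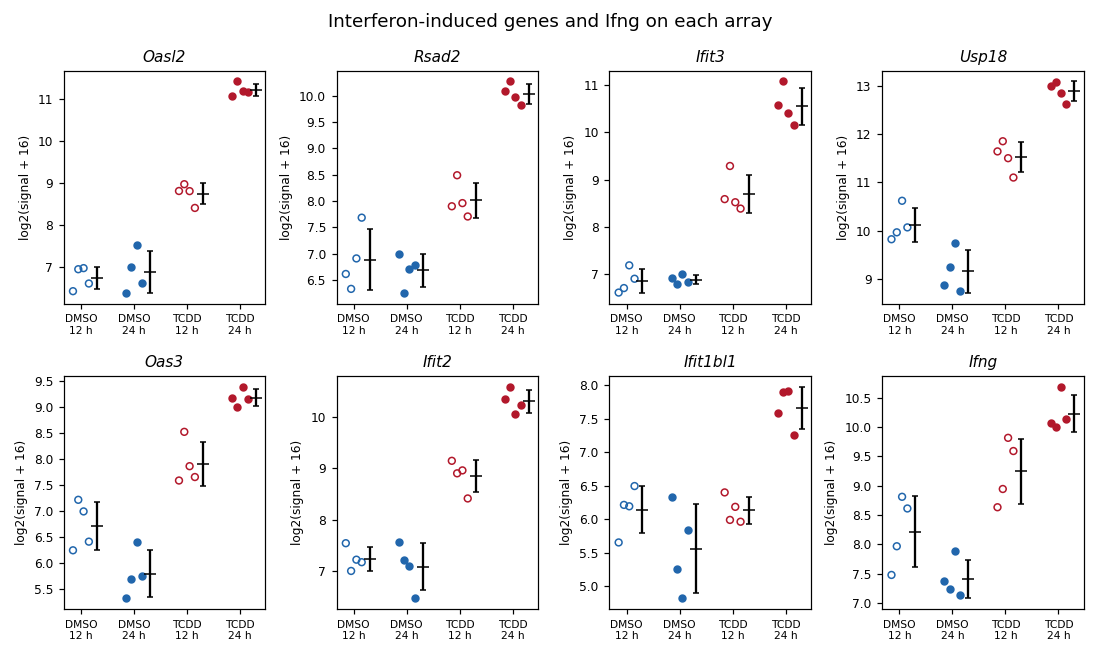
Log2(signal + 16) on each of 4 arrays per group for 7 interferon-induced genes and Ifng, DMSO in blue and TCDD in red, open circles at 12 h and filled circles at 24 h, with the mean and SD beside them. In each panel the 4 TCDD arrays of 24 h are the highest of the 16.

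Genes of the integrated stress response, the programme in which Atf4 raises amino acid uptake and synthesis, rose in both treatments. Of 27 tested, 20 rose with TCDD and 0 fell, with a median change of 0.69. With DMSO 18 rose and 0 fell, with a median of 0.50, and the difference was called for 0 of the 27 (limma), and 4 had an unadjusted p below 0.05. The TCDD median was 0.81 on day 1, 0.60 on day 2, 0.93 on day 3 and 0.39 on day 4, the widest spread between days of any of the 32 lists. Across the alternatives 14 to 20 members rose. Of all genes tested, 9.01% rose with TCDD and 9.63% with DMSO in the fit reported.

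Chac1, which degrades glutathione and is a sensitive Atf4 target, measured 9.53, 7.64, 8.06 and 7.70 at 12 h and 10.35, 10.51, 10.88 and 10.71 at 24 h. That was 5.20-fold higher (2.38, SE 0.29, adjusted p = 2.40e-07), and day 1 had the highest 12 h array. With DMSO it went from 8.83, 7.31, 8.89 and 8.56 to 10.50, 10.11, 11.01 and 10.35, in the same range. Trib3, a pseudokinase that feeds back on Atf4 and Chop, rose from 7.85, 6.40, 6.85 and 7.13 to 9.99, 8.98, 9.43 and 8.98 (2.29, SE 0.30, adjusted p = 1.15e-06). Nupr1, a stress-induced chromatin protein, read 8.90, 5.96, 7.28 and 6.74 and then 10.54, 8.51, 9.07 and 7.80; the 2 times overlap between days, while each day rose by itself (1.76, SE 0.41, adjusted p = 0.00215). Atf4 itself rose from 12.65, 12.29, 12.07 and 11.87 to 13.46, 13.16, 13.39 and 13.22 (1.09, SE 0.11, adjusted p = 6.92e-09). Ddit3, encoding the pro-death factor Chop, rose by 1.30 (SE 0.21, adjusted p = 3.19e-05) and Eif4ebp1, a brake on translation, was 2.84-fold higher (adjusted p = 1.03e-08). Their DMSO rises were 0.78, 1.09 and 1.25 for Atf4, Ddit3 and Eif4ebp1.

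Chac1 and Nupr1 carry the composite element bound by Atf4 and C/EBP partners, shown in capitals (TGATGNAA or TTNCATCA) in the 250 bases before the RefSeq start. Chac1 lies at chr2:119350992-119351241 on the plus strand and Nupr1 at chr7:126625471-126625720 on the minus strand of GRCm38.p6.
Chac1: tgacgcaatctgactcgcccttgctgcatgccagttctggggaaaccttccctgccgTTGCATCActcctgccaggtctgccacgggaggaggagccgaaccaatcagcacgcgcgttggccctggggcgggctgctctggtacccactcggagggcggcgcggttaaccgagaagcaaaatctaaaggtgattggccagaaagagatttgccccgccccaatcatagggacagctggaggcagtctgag
Nupr1: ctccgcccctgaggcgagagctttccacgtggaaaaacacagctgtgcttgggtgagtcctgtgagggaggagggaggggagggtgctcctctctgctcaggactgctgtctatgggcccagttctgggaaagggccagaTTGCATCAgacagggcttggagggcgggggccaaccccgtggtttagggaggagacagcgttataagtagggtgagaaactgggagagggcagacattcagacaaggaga
The element occurs in 7 of 23 list members with a promoter in the table (30.4%) and in 2.55% of all tested genes with one. Of the 7 with it 5 rose with TCDD, and of the 16 without it 11 rose. Asns, the amino acid starvation gene in which the element is well known, also holds it and was not called (-0.17, adjusted p = 0.750). Aminoacyl-tRNA synthetases, which Atf4 also drives, were mixed: 6 of 18 rose and 2 fell (median 0.12). Cars (0.53, adjusted p = 0.000225) and Nars (0.42, adjusted p = 0.00143) were among those that rose. The shares over all genes were 9.01% higher and 9.56% lower.

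Genes of the unfolded protein response and of ER folding and degradation also included many that rose. Of 14 sensors and factors tested, 8 rose with TCDD and 0 fell (median 0.51); with DMSO 11 rose and 0 fell (median 0.78). Of 24 ER chaperones and folding enzymes 15 rose and 0 fell (median 0.26; 18 and 0 with DMSO), and of 16 ER-associated degradation genes 7 rose and 1, Ubxn4, fell (11 and 0 with DMSO). Translocon and signal peptide genes had 9 of 27 higher and 0 lower with TCDD, and 19 and 0 with DMSO. ER to Golgi transport genes had 10 of 35 higher and 0 lower, and 22 and 0 with DMSO. Over all genes 9.01% were higher with TCDD and 9.63% with DMSO. With the 8 TCDD arrays fitted alone, 8 chaperone, 2 translocon and 3 ER to Golgi genes rose with TCDD. Over these 5 lists the medians were -0.25, -0.100, -0.11, -0.11 and -0.18 for the difference between the intervals, and it was called for 5 genes (Xbp1, Eif2ak3, Dnajc3, Spcs3 and Stx5a), each more negative with TCDD, where 1% of all genes were called that way. The Dnajc3 interaction (-0.29, adjusted p = 0.0294) was lost without any one of the 4 days and without the day in the fit (adjusted p = 0.428).

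Herpud1, a membrane protein that feeds misfolded proteins to degradation, measured 11.72, 11.32, 11.22 and 11.22 at 12 h and 12.97, 12.72, 13.03 and 12.91 at 24 h, 2.90-fold higher (1.54, SE 0.14, adjusted p = 1.75e-09); the DMSO rise was 1.81. Bhlha15, encoding the secretory cell factor Mist1, rose from 8.53, 8.65, 8.15 and 8.74 to 9.36, 9.67, 9.76 and 10.26 (1.25, SE 0.15, adjusted p = 2.19e-07). Creb3l2, an ER-bound factor related to Atf6, rose by 0.84 (adjusted p = 1.85e-07). Among the folding genes, the cochaperone Dnajb9 rose by 0.78 (SE 0.062, adjusted p = 9.49e-11), the oxidase Ero1b by 0.77 (SE 0.083, adjusted p = 3.33e-08) and Dnajc3, which inhibits the stress kinase PERK, by 0.67 (SE 0.052, adjusted p = 5.93e-11). Sdf2l1 rose by 0.61 (adjusted p = 0.000188). The retrotranslocation channel gene Derl1 rose by 0.81 (adjusted p = 1.35e-09) and the ubiquitin ligase gene Syvn1 by 0.64 (adjusted p = 3.84e-07). Sec24d, of the COPII coat, rose by 0.85 (adjusted p = 3.39e-07), the cargo receptor Lman1 by 0.50 (adjusted p = 2.56e-06) and the signal peptidase subunit Spcs2 by 0.35 (adjusted p = 0.000219).

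The master chaperone gene Hspa5 (BiP), already bright at 12 h, rose little. It read 14.71, 14.53, 14.66 and 14.63 at 12 h and 14.85, 14.76, 14.78 and 14.80 at 24 h, a rise of 0.16 (SE 0.048, adjusted p = 0.0147) with no overlap. The call was lost without the day in the fit (adjusted p = 0.0550), without day 1, 2 or 4 (adjusted p = 0.0832, 0.104 and 0.0848) and without TCDD 12 h replicate 2 (adjusted p = 0.0712). Other Hspa5 probe sets gave 0.47 (adjusted p = 0.00205) and -0.15 (adjusted p = 0.437).

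The promoters of 3 folding genes are shown because they carry the ER stress element, bound by NF-Y together with Atf6 or Xbp1, searched as CCAAT, any 9 bases and CCACG on either strand. They are given with the match in capitals, as the 250 bases before the RefSeq start on GRCm38.p6, all on the plus strand: Hspa5 at chr2:34771840-34772089, Dnajc3 at chr14:118937682-118937931 and Ero1b at chr13:12565633-12565882.
Hspa5: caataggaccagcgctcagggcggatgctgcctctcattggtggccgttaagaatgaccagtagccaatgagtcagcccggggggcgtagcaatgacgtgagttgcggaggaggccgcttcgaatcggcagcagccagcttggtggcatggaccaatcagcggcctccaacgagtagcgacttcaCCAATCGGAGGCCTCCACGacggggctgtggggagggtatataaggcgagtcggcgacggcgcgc
Dnajc3: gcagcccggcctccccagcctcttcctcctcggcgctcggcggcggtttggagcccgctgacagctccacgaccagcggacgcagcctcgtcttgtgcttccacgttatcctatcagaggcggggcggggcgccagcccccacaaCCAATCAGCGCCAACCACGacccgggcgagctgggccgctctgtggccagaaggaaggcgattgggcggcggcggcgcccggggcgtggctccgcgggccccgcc
Ero1b: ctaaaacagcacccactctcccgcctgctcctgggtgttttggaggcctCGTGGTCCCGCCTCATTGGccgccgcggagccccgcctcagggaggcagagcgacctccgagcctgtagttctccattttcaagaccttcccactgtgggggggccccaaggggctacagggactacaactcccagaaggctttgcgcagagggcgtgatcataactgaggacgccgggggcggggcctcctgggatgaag
The element was found in 8 of 21 chaperone list members with a promoter (38.1%) and in 14 of 9717 tested genes with one (0.144%). Of the 8 with it 5 rose with TCDD, and of the 13 without it 8 rose.

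Xbp1 and Prdm1, which direct antibody secretion, rose with DMSO by more than they changed with TCDD. Xbp1 measured 13.02, 12.93, 13.06 and 13.09 at 12 h and 13.49, 13.45, 13.33 and 13.34 at 24 h with TCDD, a rise of 0.38 (SE 0.056, adjusted p = 7.79e-06, and 0.0534 with these 8 arrays fitted alone). With DMSO it started lower, at 12.46, 12.36, 12.41 and 12.52, and reached 13.44, 13.41, 13.38 and 13.49, a rise of 0.99. The 24 h arrays of both treatments overlap, and the 12 h arrays do not. The interaction of -0.62 (SE 0.079, adjusted p = 3.97e-05) was called in every alternative run. Other Xbp1 probe sets gave interactions of -0.71 (adjusted p = 0.0104), -0.42 (adjusted p = 0.215) and 0.064 (adjusted p = 0.943). Prdm1 read 10.49, 10.42, 10.41 and 10.82 and then 10.68, 10.47, 10.52 and 10.88 with TCDD, a change of 0.100 (SE 0.084, adjusted p = 0.460), and the 2 times overlap. With DMSO it went from 10.21, 10.12, 10.04 and 10.39 to 10.88, 10.60, 10.75 and 11.04, a rise of 0.63 (adjusted p = 1.13e-06). The Prdm1 interaction was -0.53 (SE 0.12, adjusted p = 0.0117); it was lost without the day in the fit (adjusted p = 0.305) and without day 2, 3 or 4 (adjusted p = 0.103, 0.0726 and 0.130). Irf4, which sustains both activation and secretion, changed by -0.049 (SE 0.11, adjusted p = 0.813).

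Secretory genes themselves rose in both treatments. Of 16 plasma cell genes 11 rose with TCDD and 1, Tnfrsf13b, fell (median 0.43), and 11 and 1 did with DMSO (median 0.55). Of all genes tested, 9.01% rose with TCDD and 9.63% with DMSO. Ighm, the IgM heavy chain, went from 10.76, 10.86, 9.88 and 10.45 to 11.59, 11.93, 11.14 and 11.51, 2.08-fold higher with no overlap (1.05, SE 0.13, adjusted p = 2.29e-07), and day 3 had the lowest array at each time. A second bright Ighm probe set gave 1.02, and 4 dimmer ones gave -0.11 to 0.14, none called. Its DMSO rise was 1.21. Pou2af1, a coactivator of immunoglobulin genes, rose from 11.24, 11.17, 11.02 and 11.03 to 12.41, 12.25, 12.53 and 12.65 (1.34, SE 0.080, adjusted p = 1.91e-13). Derl3, an ER degradation gene of secretory cells, rose by 1.07 (SE 0.11, adjusted p = 1.80e-08). Jchain, which joins IgM pentamers, rose by 0.56 (adjusted p = 0.0347); without the day in the fit its adjusted p was 0.335, and it was lost without day 1, 2 or 3 (adjusted p = 0.0835, 0.0981 and 0.159) and without 5 of the 8 arrays one at a time. Sdc1 (CD138), the surface mark of plasma cells, was near the median of all values and not called (5.82, 4.94, 6.24 and 5.46 and then 6.36, 6.21, 6.18 and 5.60).

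**Figure D4:**
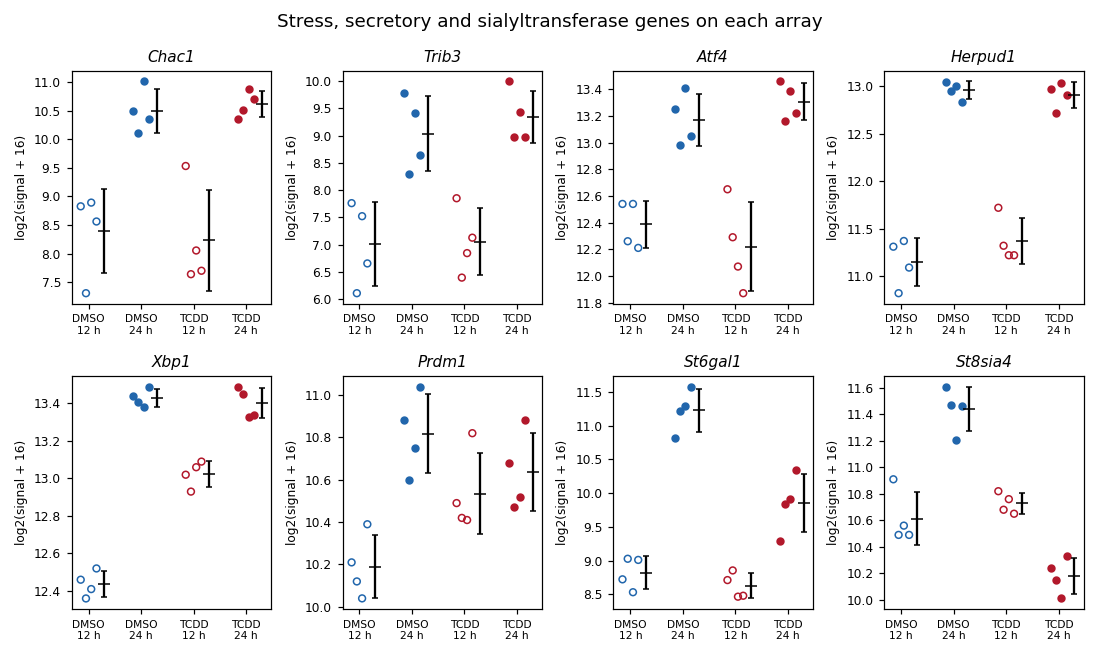
Log2(signal + 16) on each of 4 arrays per group for 8 stress, secretory and sialyltransferase genes, DMSO in blue and TCDD in red, open circles at 12 h and filled circles at 24 h, with the mean and SD beside them. Chac1, Trib3, Atf4 and Herpud1 rise alike in both treatments, and Xbp1 and St6gal1 rise further with DMSO. Prdm1 rises with DMSO, and its change with TCDD was not called. St8sia4 falls with TCDD and rises with DMSO.

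B cell identity genes were split. Of 16 tested, 5 rose and 4 fell with TCDD (median 0.11), while 3 rose and 6 fell with DMSO (median -0.27). The difference was called for 3, each more positive with TCDD. The shares over all genes were 9.01% and 9.56% with TCDD, 9.63% and 7.69% with DMSO, and 1.25% for a more positive difference. Foxp1, a B cell forkhead factor, rose by 0.85 (adjusted p = 3.96e-08), and Cd83, an activation marker, fell from 10.44, 10.33, 10.34 and 10.54 to 10.13, 9.16, 9.29 and 9.07 (group means 10.41 and 9.41, adjusted p = 7.67e-06). Bach2, which represses Prdm1, fell from 7.96, 8.33, 8.88 and 8.43 to 6.59, 7.11, 7.93 and 6.85 with no overlap (-1.28, SE 0.39, adjusted p = 0.0186), and by 1.31 with DMSO. TCDD arrays of Bach2 at 24 h ran from 6.59 to 7.93, still above the DMSO arrays, 4.50 to 5.23. Its TCDD call was lost without day 1, 2 or 4 (adjusted p = 0.0767, 0.0893 and 0.0805) and without TCDD 12 h replicate 3 or 4 or TCDD 24 h replicate 1 (adjusted p = 0.0582, 0.0641 and 0.0833). Other Bach2 probe sets were not called with TCDD, at -0.78 (adjusted p = 0.06414) and 0.13 (adjusted p = 0.883). Pax5, which holds B cell identity, was dim and scattered, 6.08, 7.13, 5.74 and 5.01 and then 5.96, 6.25, 6.37 and 5.84, and its change of 0.12 (SE 0.28, adjusted p = 0.837) turned negative when some single arrays or days were left out. Bcl6 was too dim to be tested.

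Of 18 B cell receptor signalling genes 5 rose and 3 fell, against 9.01% and 9.56% of all genes (median 0.074). Malt1, the paracaspase between the receptor and NF-kB, rose by 0.91 (adjusted p = 5.27e-06), and the inhibitory Fc receptor Fcgr2b by 0.74 (adjusted p = 1.80e-08). The phosphatase Ptpn6 fell by 0.56 (adjusted p = 0.000655). MHC class II genes, which decline as B cells turn to secretion, had 2 of 12 higher and 5 lower (median -0.16), against 0 and 5 with DMSO. H2-Ab1 fell from 11.63, 12.19, 12.04 and 12.12 to 11.01, 11.18, 11.68 and 11.84, with overlap between days (-0.57, SE 0.12, adjusted p = 0.000659). H2-Eb1 fell by 0.39 (SE 0.077, adjusted p = 0.000410). Without the day in the fit neither was called (adjusted p = 0.126 for H2-Ab1 and 0.0782 for H2-Eb1).

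Glycosyl- and sialyltransferases, which shape the sugars of secreted and surface proteins, were evenly split with TCDD, 6 of 27 higher and 6 lower. The shares over all genes were 9.01% and 9.56%. St6gal1, which adds alpha-2,6 sialic acid, rose with TCDD from 8.71, 8.86, 8.47 and 8.48 to 9.30, 9.85, 9.91 and 10.35 (1.22, SE 0.16, adjusted p = 6.22e-07). With DMSO it rose from 8.72, 9.03, 8.53 and 9.01 to 10.82, 11.22, 11.29 and 11.58 (2.40). The interaction was -1.18 (SE 0.22, adjusted p = 0.00218, 0.0554 without the day in the fit and 0.0642 without day 2). A second St6gal1 probe set was not called, with 0.53 for TCDD (adjusted p = 0.2355) and an interaction of -1.32 (adjusted p = 0.1). St8sia4, a polysialyltransferase, fell with TCDD from 10.82, 10.68, 10.76 and 10.65 to 10.24, 10.15, 10.01 and 10.33 (-0.55, SE 0.13, adjusted p = 0.00264). With DMSO it rose from 10.91, 10.49, 10.56 and 10.49 to 11.61, 11.47, 11.21 and 11.46 (0.83). TCDD and DMSO arrays overlap at 12 h and lie apart at 24 h, and its interaction of -1.38 (SE 0.18, adjusted p = 4.90e-05) was called in every alternative run. A second St8sia4 probe set was not called, with -0.27 for TCDD (adjusted p = 0.4835) and an interaction of -0.83 (adjusted p = 0.218). St8sia6 fell in both treatments (-0.67 and -0.78).

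Trib2, Ccng2 and Ctla4 also had negative interactions and were called higher with DMSO. Trib2, a pseudokinase, changed by 0.31 with TCDD and 1.44 with DMSO, with an interaction of -1.13 (SE 0.14, adjusted p = 3.97e-05, and 0.106 with its probe sets averaged). A second Trib2 probe set gave an interaction of -0.69 (adjusted p = 0.362). Ccng2, an unconventional cyclin of arrested cells, changed by 0.40 (adjusted p = 0.0920) and 1.54, with an interaction of -1.13 (adjusted p = 0.00654). That was lost without the day (adjusted p = 0.0705) and without day 2 or 4 (adjusted p = 0.0776 and 0.0960). A second Ccng2 probe set gave an interaction of -0.75 (adjusted p = 0.251). Ctla4, an inhibitory receptor better known from T cells, was already higher with TCDD at 12 h (10.47 to 11.42 against 7.66 to 8.44). It rose by 1.30 with TCDD (adjusted p = 3.17e-05) and by 2.54 with DMSO, and at 24 h the TCDD arrays (11.86 to 12.47) still lay above the DMSO arrays (10.44 to 10.77). Plet1 rose by 0.76 with TCDD, from a mean of 9.88 to 10.64 (interaction -1.20, adjusted p = 0.0283). With DMSO it rose by 1.96, from a mean of 4.50, near the lowest value of the scale, to 6.46. The TCDD means thus lay above the DMSO means at both times. Other Plet1 probe sets were not called for the TCDD change (-0.13 and 0.66, adjusted p = 0.887 and 0.1495) or for the interaction. Ptpn23 changed by -0.29 with TCDD and 1.04 with DMSO (interaction -1.32, adjusted p = 0.0466). By day, from 1 to 4, its DMSO change was 0.69, 0.61, 0.51 and 2.33. Slc26a2 changed by -0.57 and 0.71 (interaction -1.28, adjusted p = 0.0231), and its DMSO change by day was 0.74, 0.42, -0.20 and 1.87. For both genes the largest value, that of day 4, rests on DMSO 12 h replicate 4, the array with the highest median signal.

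Among NF-kB and inflammatory genes 4 of 29 rose and 6 fell with TCDD (median -0.11), against 3 and 12 with DMSO (median -0.19). The shares over all genes were 9.01% and 9.56% with TCDD, and 9.63% and 7.69% with DMSO. The difference was called positive for 4 and negative for 1, where 1.25% and 1% of all genes were called in those directions. Il6, a growth and differentiation cytokine for B cells, measured 8.33, 7.56, 7.11 and 7.52 at 12 h and 10.10, 8.70, 8.82 and 8.31 at 24 h with TCDD (1.35, SE 0.23, adjusted p = 5.94e-05). With DMSO it read 9.59, 9.09, 9.27 and 8.78 and then 9.91, 8.82, 9.62 and 9.03 (0.16, adjusted p = 0.696). At 12 h all TCDD arrays were below all DMSO arrays, and at 24 h they overlapped. Nfkbiz, an atypical IkB that assists Il6 transcription, rose by 0.79 with TCDD (SE 0.13, adjusted p = 5.47e-05) and changed by -0.060 with DMSO. Other Nfkbiz probe sets gave interactions of 0.51 (adjusted p = 0.215) and 0.46 (adjusted p = 0.55), not called. Il10, an anti-inflammatory cytokine, rose by 0.66 (SE 0.075, adjusted p = 8.58e-08) from an already high 13.97 to 14.12, and by 0.40 with DMSO. Il1rn, the interleukin-1 receptor antagonist, fell from 9.24, 9.70, 9.63 and 9.85 to 8.21, 7.38, 7.82 and 8.13 (-1.72, SE 0.19, adjusted p = 4.64e-08) and by 1.69 with DMSO. The chemokine gene Ccl3 changed by -0.30 with TCDD (adjusted p = 0.574) and fell by 2.07 with DMSO. Of 23 TNF family ligands and receptors 3 rose and 4 fell, among the latter Cd40, the receptor for T cell help (-0.58, adjusted p = 2.96e-06).

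The largest changes outside these lists were mostly shared by both treatments. Sla, an adaptor that dampens antigen receptor signalling, rose from 8.41, 7.36, 7.64 and 7.58 to 10.05, 9.98, 10.07 and 9.72 (2.21, SE 0.18, adjusted p = 9.49e-11), and by 2.69 with DMSO. Tg, the thyroglobulin gene, rose from 9.03, 8.71, 8.28 and 8.18 to 10.80, 10.76, 10.77 and 10.59 (2.18, SE 0.16), and by 1.94 with DMSO, and Sla lies within the span of Tg in the RefSeq table. Cerk, the ceramide kinase, rose by 2.08 (adjusted p = 2.04e-06), the stress kinase gene Mapk10 by 2.04 (adjusted p = 0.000198) and the retinoic acid synthesis gene Aldh1a2 by 2.04 (adjusted p = 5.93e-06), with DMSO rises of 2.92, 2.34 and 1.82.

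Of the largest falls, Tph1, the first enzyme of serotonin synthesis, went from 9.75, 9.73, 10.59 and 10.73 to 7.95, 7.94, 8.75 and 8.64 (-1.88, SE 0.27, adjusted p = 5.18e-06), and by 1.80 with DMSO. The TCDD arrays of 12 h lay above all DMSO arrays of that time (6.98 to 8.11). Spint1, a serine protease inhibitor, fell from 8.50, 9.02, 9.51 and 9.59 to 7.31, 7.24, 7.58 and 7.77 (-1.68, adjusted p = 5.59e-06) and likewise started above DMSO (6.42 to 6.84). Vcam1, an adhesion molecule under NF-kB, fell from 9.65, 9.60, 9.67 and 9.81 to 8.38, 8.59, 7.97 and 7.94 (-1.47, SE 0.13, adjusted p = 8.75e-10), and started below DMSO (10.83 to 10.88). Tfcp2l1 and Igsf9 fell by 1.73 (adjusted p = 0.000734) and 1.48 (adjusted p = 0.00316), with DMSO changes of -0.53 and -0.086. Their interactions of -1.19 and -1.40 were not called (adjusted p = 0.255 and 0.157). Slc4a8, a bicarbonate transporter gene, fell from 6.86, 7.52, 6.75 and 8.94 to 6.35, 5.13, 4.80 and 5.64 (-2.04, SE 0.57, adjusted p = 0.0104). That was the next fall after Cyp2s1 in the ranking of called genes that fell on all 4 days. With DMSO it changed by 0.32, and the interaction of -2.36 was not called (adjusted p = 0.129). Its fall was lost without day 2 (adjusted p = 0.0652), day 4 (adjusted p = 0.112) or TCDD 12 h replicate 4 (adjusted p = 0.0571). The falls of Cfp (-1.53), Ccl1 (-1.41), Fhod3 (-1.40) and Ntn1 (-1.38) were each lost without 1 or more days: Cfp without day 1 (adjusted p = 0.0553), Ccl1 without day 3 or 4 (0.0640 and 0.0966), Fhod3 without day 1 or 2 (0.0764 and 0.0603) and Ntn1 without day 1 or 3 (0.173 and 0.117). Ccl1 was also lost without TCDD 12 h replicate 4 and Ntn1 without 5 of the 8 arrays one at a time, with adjusted p = 0.0727 for Ccl1 and up to 0.145 for Ntn1.

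Growth genes were mixed. Myc, which drives ribosome production, rose with TCDD from 12.44, 12.28, 12.01 and 12.09 to 12.86, 12.97, 12.97 and 13.08 (0.77, SE 0.081, adjusted p = 2.68e-08). At 12 h all TCDD arrays were below all DMSO arrays (12.61 to 12.72), and at 24 h all were above them (12.76 to 12.84). The interaction was 0.64 (SE 0.11, adjusted p = 0.00143, and 0.0905 without day 4). Yet of the 38 MYC and ribosome biogenesis genes Myc alone was called higher and 11 were lower (median -0.13), and with DMSO 0 were higher and 16 lower. Of all genes tested, 9.56% were lower with TCDD and 7.69% with DMSO. The ribosome assembly factor Grwd1 fell by 0.52 (adjusted p = 7.70e-05).

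Of 41 DNA replication genes 1 rose and 8 fell with TCDD, and of 39 mitotic genes 2 rose and 7 fell with small medians (-0.15 and -0.087). Across the alternatives 2 to 15 replication genes fell, against 9.56% of all genes in the fit reported. Mcm3, of the replicative helicase, fell from 12.76, 12.84, 12.89 and 12.83 to 12.46, 12.56, 12.46 and 12.51 (-0.33, SE 0.062, adjusted p = 0.000201). The mitotic kinase gene Aurka fell by 0.42 (adjusted p = 5.36e-06, and 0.476 with its probe sets averaged) and the motor gene Kif23 by 0.35 (adjusted p = 0.00529). Another tested Kif23 probe set was not called (-0.077, adjusted p = 0.76). Constitutive proteasome subunits had 0 of 31 higher and 12 lower (median -0.13), against 1 and 5 with DMSO. Across the alternatives 0 to 16 fell, with the 0 coming from the fit of these 8 arrays alone. Psmd6, a regulatory particle subunit, fell by 0.32 (SE 0.059, adjusted p = 0.000149, and 0.0629 with the 8 arrays fitted alone), from 13.63, 13.71, 13.52 and 13.77 to 13.37, 13.37, 13.30 and 13.30. A second bright Psmd6 probe set was not called (-0.096, adjusted p = 0.740).

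Cholesterol and lipid synthesis genes were called higher more often with DMSO than with TCDD, a difference that was tested for single genes and not for the list. With DMSO 15 of 28 rose and 0 fell (median 0.37), where 9.63% of all genes rose and 7.69% fell. With TCDD 6 rose and 5 fell (median -0.027), and the difference was called for Hmgcs1, Sqle and Fdft1, with interactions of -0.77, -0.75 and -0.62. Scd1, a fatty acid desaturase, rose in both (0.79, adjusted p = 4.12e-08, and 0.76). Of 22 NRF2 and glutathione genes 1 rose and 4 fell with TCDD (9.01% and 9.56% of all genes). Among the latter were Gclm (-0.63, adjusted p = 2.61e-05) and Gss (-0.68, adjusted p = 0.00105), both of glutathione synthesis, and they fell alike with DMSO (-0.55 and -0.68).

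Of 17 Bcl2 family genes 5 rose and 0 fell (median 0.24), where 9.01% of all genes rose and 9.56% fell; with the 8 arrays fitted alone 2 rose. Bcl2l11, encoding the killer protein Bim, measured 7.34, 7.47, 8.11 and 7.67 at 12 h and 8.55, 9.36, 9.78 and 9.72 at 24 h (1.71, SE 0.16, adjusted p = 4.59e-09), 3.26-fold higher with no overlap, and rose by 2.02 with DMSO. Of 21 p53 targets 6 rose and 1 fell (2 rose without day 2 or without TCDD 24 h replicate 1), Mdm2 among the former (0.67, adjusted p = 0.00103). Of 16 genes on a list of CDK inhibitors, cyclins and genes acting with them, 2 rose and 3 fell. Those that rose, Rb1 (0.72, adjusted p = 7.75e-07) and Rbl2, are neither inhibitors of that kind nor cyclins. In the remaining lists, to be read against 9.01% of all genes higher and 9.56% lower, the calls were 3 of 23 immediate early genes higher and 1 lower, 3 of 17 TGF-beta genes higher and 0 lower, 3 of 28 glycolysis and hypoxia genes and 3 of 40 respiratory chain genes higher and 0 lower, and 3 of 37 lysosome and autophagy genes higher and 2 lower. In the glycolysis and hypoxia list Vegfa, an angiogenic factor raised by hypoxia and by Atf4, rose by 1.79 (adjusted p = 0.000167), and its other tested probe set gave 0.75 (adjusted p = 0.27). It also rose with DMSO, from a mean of 5.37 to 6.87 (adjusted p = 0.00116). Tgfbr2 rose by 0.79 (adjusted p = 6.00e-06) and the lysosomal gene Cln3 fell by 0.70 (adjusted p = 9.83e-06).

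**Figure D5:**
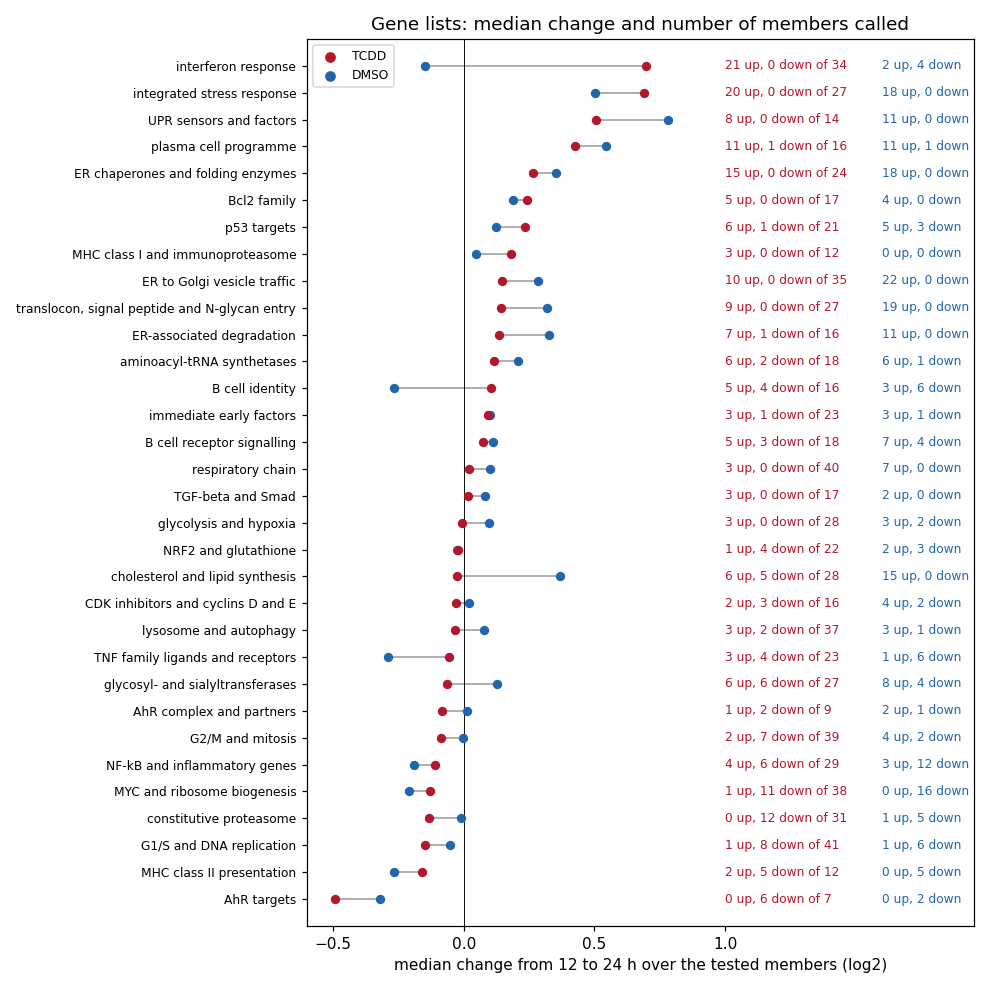
Median change from 12 to 24 h (log2) over the tested members of each of 32 gene lists, TCDD in red and DMSO in blue, with the number of members called higher and lower at an adjusted p of 0.05 (limma) printed beside each. The interferon response list has the widest gap, 0.70 with TCDD against -0.15 with DMSO.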

How the data were processed

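Expression was read on Affymetrix arrays of the mouse genome. The deposited values are linear intensities computed by the authors in GCOS 1.0, per the submitters' processing notes, and scaled to a trimmed mean of 500, as the values show. They were quantile normalized over the 44 arrays and taken as log2(signal + 16) after removal of 64 control probe sets. Of 45101 probe sets, 34945 carry 1 gene symbol in the platform annotation, 932 several and 9160 none; the probe set with the highest mean stood for each of 18193 genes. Genes whose highest group mean was at or below 6.21, the median of all values, were left out (6224). Other probe sets of a named gene did not always give the same call, and they are given for some genes only.

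The 11969 genes left were fitted with limma 3.58.1 (R 4.3.3) over 11 groups, with the replicate number as a block, and p-values were Benjamini-Hochberg adjusted over all of them with a threshold of 0.05. The block comes from the labels, which give each replicate its own day. Same-numbered TCDD arrays correlated in their deviations by 0.34, 0.037, 0.065 and 0.23, with a median of 0.146 against -0.030 for different numbers. The fit was tested on simulated data. Promoter sequences are from RefSeq (GRCm38.p6). Motifs were searched in Python 3.11.15, and matplotlib 3.10.9 drew the figures.

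The arrays described, the 32 gene lists, the markers and the genes always named were chosen with earlier results of these data known. Beyond those, the genes named follow a written rule on size and direction of change, and exceptions are marked as chosen after their values were seen. The number of arrays limits the precision. Alternatives were other blocks, filters, scalings, pseudocounts and probe set rules, and leaving out arrays or days.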

Additional observations from a re-analysis of the deposited data

Results flagged for a closer look

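The change from 12 to 24 h differed between TCDD and DMSO cells for 270 genes (limma, adjusted p at most 0.05). Among the genes above given with their own tests it was more positive with TCDD for Usp18 (2.32), Oasl2 (2.32), Rsad2 (2.22), Oas3 (2.19), Ifit1bl1 (2.11), Ifit3 (1.82), Ddx60 (1.81), Ifng (1.79), Ccl3 (1.77), Ifit2 (1.59), Il6 (1.19), Cyp1a1 (1.07), Nfkbiz (0.85) and Myc (0.64). It was more negative for St8sia4 (-1.38), Ctla4 (-1.24), St6gal1 (-1.18), Ccng2 (-1.13), Trib2 (-1.13), Xbp1 (-0.62), Prdm1 (-0.53) and Dnajc3 (-0.29). Other genes named above were more positive: Map7d2 (2.13), Il3 (1.83), Oas2 (1.52), Mx1 (1.39), Oas1a (1.22), Tlr7 (1.22), Dhx58 (1.19), Oasl1 (1.11), Spib (0.88), Trim30a (0.87), Ms4a1 (0.82), Gbp3 (0.68) and Bst2 (0.53). Others were more negative: Ptpn23 (-1.32), Slc26a2 (-1.28), Plet1 (-1.20), Mgat4a (-0.82), Hmgcs1 (-0.77), Sqle (-0.75), Fdft1 (-0.62), Eif2ak3 (-0.56), Stx5a (-0.43) and Spcs3 (-0.33). Among the first 22 of these genes, leaving out single days lost the call for Cyp1a1, Il6 and Dnajc3 whichever of the 4 days was left out, and for Ccl3, Nfkbiz, Ctla4, Oas3, Ifit2, Ddx60, Ccng2 and Prdm1 for 2 or 3 of them.

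Single arrays stood apart from the other 3 of their group in 20 of 408 groups of 4 arrays over 102 genes (4.9%), where chance flags about 1 in 20. With TCDD at 12 h these were replicate 1 for Vegfa (6.34, nearest array 4.71), Ncoa2 (9.81, nearest 9.41) and Cln3 (8.33, nearest 8.70), replicate 2 for Psmb9 (13.46, nearest 13.29) and replicate 4 for Spcs2 (12.97, nearest 13.16). With TCDD at 24 h they were replicate 1 for Vegfa (7.55, nearest 6.60), replicate 2 for H2-T24 (9.39, nearest 9.03), replicate 3 for Dnajc3 (11.33, nearest 11.48) and replicate 4 for Ahrr (7.83, nearest 8.09), as was replicate 2 for Ntn1 (6.02, nearest 4.67). Among DMSO 12 h arrays they were replicate 1 for St8sia4 (10.91) and Creb3l2 (9.02), replicate 2 for Aldh1a2 (4.15), replicate 3 for Mapk10 (7.80) and replicate 4 for Ahrr (6.61) and Fhod3 (4.37). Among DMSO 24 h arrays they were replicate 1 for Kif23 (10.79) and Grwd1 (11.76), replicate 2 for St8sia6 (10.60) and replicate 3 for Psmb9 (13.48).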

How the results depend on the processing

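Without the replicate block that pairs arrays by day, 1176 genes were called from 12 to 24 h with TCDD, 1194 with DMSO and 70 for their difference. With the block and only the arrays compared, the counts were 981 with TCDD and 538 with DMSO. The difference was called for 157 genes with no filter, 174 with probe sets averaged per gene and 594 without the 4 arrays standing apart. Leaving out 1 day or array gave 1278 to 2097 genes with TCDD, 1366 to 1916 with DMSO and 39 to 282 for the difference. Of 151 genes of the TCDD comparison followed through all alternatives, 75 were called in each, 76 were lost in at least 1 and 0 reversed. Of 31 followed for the difference, 4 (Usp18, Rsad2, St8sia4 and Xbp1) were called in each and 27 were lost in at least 1. Not every other probe set of Rsad2, St8sia4 and Xbp1 was called for the difference. Leaving out 1 day or array moved the changes of Irf4 (-0.11 to 0.021) and Pax5 (-0.18 to 0.47), neither called, across 0. The causes were not tested. Dim genes near 4, the lowest value this scale allows, have understated changes.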
